A study of Mus musculus with 5 samples.

Results

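The 42 genes described here encode proteins of ribosome biogenesis and of RNA polymerase I, and were taken from a list of gene symbols, 42 of the 55573 genes in the expression tables. By known role they comprise 7 genes of the RNA polymerase I machinery, 5 of the box C/D ribonucleoproteins, 4 further nucleolar factors, 13 factors of small-subunit assembly and 13 of large-subunit assembly. RNA sequencing had been done on 3 tumours and 2 samples of normal pancreas from mice, in a series that set out to credential a MYC-driven genetic model of neuroblastoma. The tumours carried the genotype labelled Th-Cre:MYC, from crossing a TH-Cre mouse with a CAG-STOPflox/flox-MYC mouse. Cre from the tyrosine hydroxylase promoter, which is active in catecholaminergic cells, removes a stop cassette there and leaves MYC under the ubiquitous CAG promoter. The normal pancreas came from wild-type littermates and was perfused with RNAlater before isolation. The sources used here give neither age nor sex of the animals, nor the site of the tumours. Tumours 1 and 2 share the number 86 in their titles and tumour 3 carries 114; whether both then came from a single mouse is not stated. P-values below treat the libraries as independent samples. Those of single genes set the difference between the groups against the spread among libraries, which may be technical. They may therefore not extend to other mice. Transgene, tissue of origin and any difference in preparation, such as the RNAlater perfusion, go together with the groups and cannot be told apart. The numbers that open the library names lie in separate runs for tumours and normal pancreas, and what they stand for is not given. How RNA was selected for sequencing is not given either.

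RNA polymerase I transcribes the ribosomal RNA precursor in the nucleolus. Box C/D ribonucleoproteins methylate that precursor, and large sets of assembly factors fold and cleave it into the small and the large ribosomal subunit before export to the cytoplasm. MYC is known in mouse and human cells to raise the transcription of many genes of this pathway. The expression of the transgene was not measured here, since the species of its coding sequence is not stated.

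The libraries differed in depth and in makeup, and both differences move with every member value given below. Totals of estimated counts were 15074489, 12601496 and 6611967 in tumours 1, 2 and 3, against 48848987 and 51669489 in normal pancreas. Protein-coding genes took 17.2%, 14.2% and 13.1% of all TPM (a relative level per length of transcript, with the same total in every library) in tumours, against 98.5% and 98.7% in normal pancreas. Of all counts they took 68.4%, 65.5% and 62.2% in tumours, against 99.2% and 99.3% in normal pancreas. Genes of pancreatic acinar cells, which secrete digestive enzymes, summed to 860820 to 873790 TPM in normal pancreas and to 37.1 to 1886 TPM in the tumours. Of 32 acinar genes, 30 were lower in the tumours, but 16 without tumour 1 and 14 in DESeq2. All 13 genes of a neuroendocrine list were higher, at 12865 to 32951 TPM in tumours against 3.02 to 4.48 TPM in normal pancreas. Of 20 proliferation genes, 17 were higher and 3 did not pass, with sums of 56.7 to 78.2 TPM in tumours and 9.76 to 9.94 TPM in normal pancreas, where 1 of them was at 0 in both libraries. Summed duct markers reached 59.3 to 86.7 TPM in tumours against 130 to 135 TPM in normal pancreas, with 6 of 8 lower and 1 higher. Immune markers, 7 of 8 tested and 1 higher, gave 31.5 to 79.99 TPM in tumours against 11.0 to 26.4 TPM in normal pancreas, and markers of stroma and endothelium, 5 of 9 higher and 2 lower, gave 92.2 to 131 TPM against 38.3 to 45.6 TPM. No acinar, endocrine, duct, immune or stromal marker was at 0 in all libraries of either group. The part that differences in cell makeup, proliferation or preparation have in the member values was not tested. In bulk tissue fewer cells of a type and less RNA per cell cannot be told apart.

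Together the 42 genes took a larger part of the RNA in every tumour than in either normal pancreas. Their summed level was 579, 649 and 425 TPM in tumours 1, 2 and 3, against 141 and 131 TPM in normal pancreas. The means were 551 ± 114 TPM in tumours (SD, n = 3) and 136 ± 6.81 TPM in normal pancreas (SD, n = 2), a ratio of 4.05 (exact two-sided permutation test, p = 0.1, the smallest the 10 possible splits of these 5 libraries allow). With TPM rescaled so that protein-coding genes outside the acinar list sum to 1000000 in each library, the summed level of the members was 3374, 4566 and 3291 in tumours, against 1134 and 1151 in normal pancreas, a ratio of 3.28 (exact permutation p = 0.1). As a share of all counts, the members took 0.293%, 0.352% and 0.246% in tumours and 0.0236% and 0.0218% in normal pancreas, a ratio of 13.1 (exact permutation p = 0.1). The 3 ratios rest on different totals, and counts, unlike TPM, are not per length. The groups do not overlap on any of these scales, but much of the background moved the same way. On TPM 76.1% of the genes tested lay higher in every tumour. As a share of all counts, protein-coding genes outside the acinar list had means of 65.1% in tumours and 11.6% in normal pancreas, a ratio of 5.60.

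**Figure D1:**
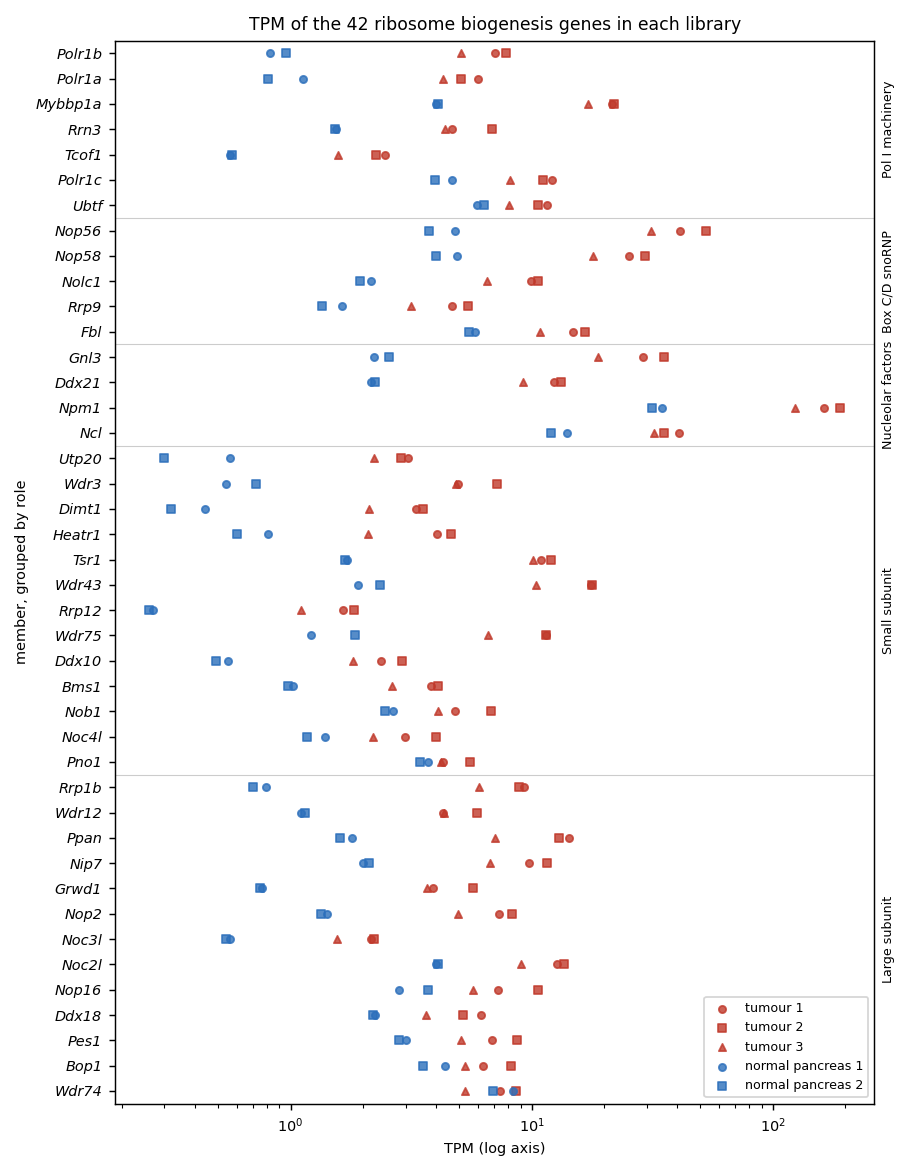
TPM of each of the 42 members (rows, grouped by role) in the 5 libraries on a logarithmic axis, with 1 point per library, tumours in red and normal pancreas in blue. In 41 members all 3 tumours lie above both normal libraries, and the points of Wdr74 overlap.

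Gene by gene, 41 of the 42 members had a higher TPM in every tumour than in both normal libraries, against 76.1% of the 16810 genes tested. Wdr74 alone overlapped. The test of each gene was edgeR's quasi-likelihood test on counts scaled by TMM, a factor per library that sets the bulk of genes level, with Benjamini-Hochberg adjustment over all genes tested and an adjusted p under 0.05. On that scale 24 members (57.1%) were higher in tumours, where 39.2% of all genes tested were, and 5 (11.9%) were lower, where 27.8% of all genes were. The other 13 did not pass. The median log2 fold change of the members was 0.74, beside 0.38 over all genes tested. All 42 members passed the low-count filter, and the lowest member count in a library was 28.

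How many members were called depended on how the libraries were set level. With total counts alone, 42 of 42 were higher, but so were 93.3% of all genes, with 2.37% lower, so that this count says little about the members. Scaled on the counts that remain without acinar, misc_RNA, ribosomal RNA and mitochondrial genes, 30 members (71.4%) were higher against 50.6% of all genes, and 2 (4.76%) were lower against 17.5%. Scaled by the members' own median ratio, which sets the members level as a group, 9 (21.4%) were higher and 13 (31.0%) lower, against 26.2% and 39.8% of all genes. Scaled on ribosomal protein genes, 38 members (90.5%) were higher, against 69.1% of all genes, where 7.6% were lower. In limma on log2(TPM + 1), 40 members (95.2%) were higher, against 63.4% of all genes, where 6.98% were lower, and with a pseudocount of 0.1 the same number of members was higher, against 68.8% of all genes, where 7.09% were lower. A factor per library shifts all genes by about the same amount, so the members' median less that of all genes, 0.36 under TMM, carries no further test of the scaling. Other choices moved it to 0.77 and 0.68 in limma with a pseudocount of 1 and 0.1, 0.55 with protein-coding genes alone, 0.43 with the exon length trend removed, 0.56 with the gene span trend removed and 0.21 without normal library 2. Without a filter on low counts the median of all genes was 1.04 and stood above that of the members, at 0.79.

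**Figure D2:**
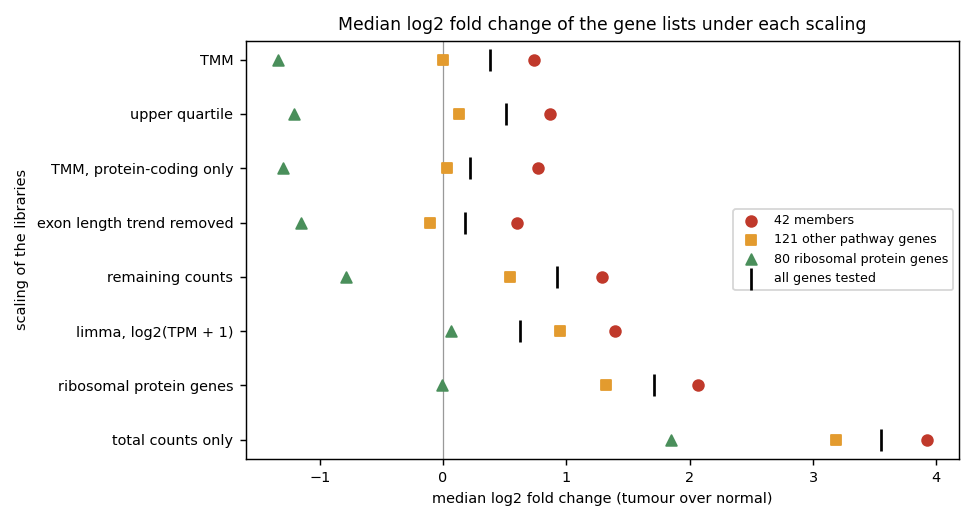
Median log2 fold change, tumour over normal pancreas (horizontal axis), of the members, of the other pathway genes and of ribosomal protein genes under 8 of the scalings (rows), with a black bar for all genes tested. The members' median is 0.74 under TMM, 1.29 with the remaining counts and 3.92 with total counts.

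The calls were compared over 12 ways of scaling and testing: TMM, total counts, upper quartile, the remaining counts, ribosomal protein genes, DESeq2, no filter, protein-coding genes alone, limma on TPM with either pseudocount, and the offsets for exon length and gene span. Of the 42 members 22 were higher in all 12, against 26.0% of the 14042 protein-coding genes that entered every fit. With the scaling on the members added, 9 members (21.4%) stayed, near the 19.3% of those genes. That scaling sets the members level as a group, so this count is not a result about them. Leaving out normal library 1 ended 7 of the 24 higher calls, and 17 members (40.5%) were then higher, against 26.0% of all genes. Leaving out normal library 2 ended 8, and 16 members (38.1%) were then higher, against 26.2% of all genes. The lone normal library is assumed there to vary as the tumours do. Of all genes called higher with the 5 libraries, 30.7% and 29.9% lost the call in these fits. The log2 fold changes of the members that lost it were little moved, at 0.76 to 1.33 without normal library 1 and 0.61 to 1.41 without normal library 2. Leaving out any tumour ended no higher call of a member, but few calls were lost among all genes either. Of all higher calls, 7.29%, 6.56% and 7.55% were lost without tumour 1, 2 and 3.

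Promoter sequence was examined because MYC, paired with MAX, is known to bind the letters CACGTG, an E-box. RefSeq promoter windows on GRCm38.p6, from 250 bases before to 50 after each gene's start, were found for 37 of the 42 members and not for Npm1, Fbl, Bop1, Tcof1 and Rrp12. The letters CACGTG, which read the same on both strands, lay before the start in 2 of 37 members (5.41%), against 7.83% of 16571 protein-coding genes. Over the whole window they lay in 9 of 37 members (24.3%), against 18 of 100 other pathway genes, 9.52% of 63 ribosomal protein genes and 9.18% of protein-coding genes. The median GC content of the windows was 59.7% in members and 56.8% in protein-coding genes. A match describes these letters only and is not a measured binding site. The 30-base stretches that hold a match are printed 5′ to 3′ on the gene's strand with the E-box in capitals, so that neighbouring bases can be compared.
Nop2, chr6:125131811-125131840, + strand: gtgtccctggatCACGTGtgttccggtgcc
Rrn3, chr16:13780472-13780501, + strand: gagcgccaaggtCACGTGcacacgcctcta
Rrn3, chr16:13780639-13780668, + strand: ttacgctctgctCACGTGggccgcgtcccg
Pes1, chr11:3963965-3963994, + strand: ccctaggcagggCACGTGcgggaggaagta
Wdr43, chr17:71616220-71616249, + strand: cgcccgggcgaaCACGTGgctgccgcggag
Tsr1, chr11:74898092-74898121, + strand: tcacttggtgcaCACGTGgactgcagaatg
Grwd1, chr7:45830740-45830769, - strand: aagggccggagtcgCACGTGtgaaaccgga
Utp20, chr10:88826765-88826794, - strand: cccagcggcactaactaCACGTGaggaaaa
Pno1, chr11:17211540-17211569, - strand: tgcgctgtacaaccacgCACGTGttcctct
Mybbp1a, chr11:72441347-72441376, + strand: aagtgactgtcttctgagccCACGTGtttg

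In Rrn3 the first base of the E-box stood at position -215 and again at position -48 relative to the start, and in Nop2 at position -60. The other 7 genes held it after the start, between position 3 in Pes1 and position 41 in Mybbp1a. The 250 bases before the start of Rrn3 are shown whole because this gene alone held the letters at a pair of places.
Rrn3, chr16:13780449-13780698, + strand: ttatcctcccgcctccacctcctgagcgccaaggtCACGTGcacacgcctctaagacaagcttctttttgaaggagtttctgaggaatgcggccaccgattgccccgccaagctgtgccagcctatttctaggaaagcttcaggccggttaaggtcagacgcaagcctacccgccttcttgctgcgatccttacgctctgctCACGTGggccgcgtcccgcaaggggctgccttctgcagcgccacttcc

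The direction of these 9 genes was mixed. Under TMM, Utp20, Tsr1, Wdr43, Grwd1, Nop2 and Mybbp1a were higher in tumours, Pno1 and Pes1 were lower, and Rrn3 did not pass the test. Of all 42 members 57.1% were higher and 11.9% lower, and of all genes tested 39.2% and 27.8%. A set of 9 genes is too small to compare with these shares.

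The RNA polymerase I machinery split, with 3 of 7 genes higher (42.9%), 1 lower (14.3%) and a median log2 fold change of 0.27. These lie near the 39.2% higher and the median of 0.38 over all genes, and are not a result about this role. Polr1b, the second-largest subunit of the polymerase (chr2:129100995-129126594, GRCm38), had 7.02, 7.79 and 5.08 TPM in tumours, against 0.82 and 0.96 TPM in normal pancreas. Its log2 fold change under TMM was 1.28 (SE 0.20, edgeR adjusted p = 0.00162). Polr1a, the largest subunit and part of the catalytic centre, had 5.99, 5.07 and 4.28 TPM in tumours, against 1.13 and 0.81 TPM in normal pancreas, with a log2 fold change of 0.78 (SE 0.15, edgeR adjusted p = 0.00377). Its call ended when the trend of expression with exon length was removed, at a log2 fold change of -0.15 (edgeR adjusted p = 0.397). Both subunits lay above normal pancreas in every tumour on TPM. Mybbp1a, a nucleolar MYB-binding protein that acts in ribosomal RNA synthesis, reached 21.6, 21.9 and 17.1 TPM in tumours against 4.02 and 4.10 TPM in normal pancreas. Its log2 fold change of 0.66 (SE 0.13, edgeR adjusted p = 0.00451) missed the threshold without normal library 2 (edgeR adjusted p = 0.0509).

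The remaining polymerase I genes moved less or the other way. Polr1c, a subunit shared with RNA polymerase III, had 12.1, 11.1 and 8.12 TPM in tumours, against 4.66 and 3.97 TPM in normal pancreas, and a log2 fold change of -0.15 (SE 0.14, edgeR adjusted p = 0.374). Rrn3, the factor that joins the polymerase to the promoter-bound complex, had 4.66, 6.84 and 4.39 TPM in tumours and 1.54 and 1.53 TPM in normal pancreas, with 0.27 (SE 0.20, edgeR adjusted p = 0.268). Tcof1, the nucleolar phosphoprotein treacle, had 2.46, 2.27 and 1.58 TPM in tumours and 0.56 and 0.57 TPM in normal pancreas, with 0.20 (SE 0.18, edgeR adjusted p = 0.359). These 3 genes did not pass under TMM although every tumour exceeded both normal libraries on TPM. Ubtf, the HMG-box factor that binds the ribosomal DNA promoter and gene body, had 11.6, 10.7 and 8.02 TPM in tumours, against 5.91 and 6.34 TPM in normal pancreas. On TMM-scaled CPM, counts relative to the scaled library size, it had 32.3, 34.4 and 29.4 in tumours against 56.9 and 58.9 in normal pancreas, a log2 fold change of -0.85 (SE 0.13, edgeR adjusted p = 0.00179). The lower call of Ubtf rests on the scaling, since TPM puts every tumour above normal pancreas and the remaining counts give -0.31 (edgeR adjusted p = 0.122).

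Ratios between members of a library do not depend on a factor per library, but they differ between TPM, which is per length, and counts; the pairs given were chosen after their values were seen. The TPM ratio of Polr1b to Ubtf was 0.606, 0.730 and 0.633 in tumours, against 0.139 and 0.151 in normal pancreas. Polr1b over Polr1c gave 0.580, 0.702 and 0.626 in tumours and 0.176 and 0.242 in normal pancreas. On counts, Polr1b over Ubtf gave 0.686, 0.806 and 0.658 in tumours and 0.172 and 0.158 in normal pancreas, and Polr1b over Polr1c gave 1.68, 2.08 and 1.61 in tumours and 0.672 and 0.667 in normal pancreas. On either scale both ratios were higher in every tumour than in both normal libraries.

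Of the 5 box C/D genes 3 were higher (60.0%, against 39.2% of all genes) and 2 did not pass, with a median of 0.73. Nop56, a core scaffold protein of the box C/D particle (chr2:130274430-130279313), had 41.4, 52.7 and 31.3 TPM in tumours, against 4.83 and 3.75 TPM in normal pancreas, and a log2 fold change of 1.62 (SE 0.21, edgeR adjusted p = 0.000848). Nop58, its partner scaffold, had 25.3, 29.6 and 17.9 TPM in tumours, against 4.89 and 4.02 TPM in normal pancreas, and a log2 fold change of 1.42 (SE 0.17, edgeR adjusted p = 0.000553). Both scaffolds were well separated between the groups. Fbl, the methyltransferase fibrillarin of the same particle, had 14.8, 16.7 and 10.8 TPM in tumours, against 5.80 and 5.51 TPM in normal pancreas, and did not pass, at -0.16 (SE 0.16, edgeR adjusted p = 0.388). The TPM ratio of Nop56 to Fbl was 2.80, 3.16 and 2.91 in tumours and 0.833 and 0.681 in normal pancreas, and that of Nop58 to Fbl was 1.71, 1.77 and 1.66 in tumours and 0.843 and 0.730 in normal pancreas. On counts, Nop56 over Fbl gave 3.52, 4.11 and 3.61 in tumours and 1.12 and 1.06 in normal pancreas, and Nop58 over Fbl gave 2.37, 2.50 and 2.60 in tumours and 0.863 and 0.803 in normal pancreas. Both ratios were higher in every tumour on either scale. These pairs too were chosen after their values were seen, so the separation is a description only. Nolc1, a chaperone of small nucleolar ribonucleoproteins, was higher by 0.73 (edgeR adjusted p = 0.0184), a call that ended without normal library 1 (edgeR adjusted p = 0.0575) or 2 (0.132). Rrp9, a protein of the U3 particle, gave -0.01 (edgeR adjusted p = 0.975).

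Nucleolar factors held the most abundant member. Npm1, the histone and ribosome chaperone nucleophosmin (chr11:33152287-33163206), had 163, 190 and 124 TPM in tumours, against 34.6 and 31.6 TPM in normal pancreas, and made up 28.1%, 29.2% and 29.1% of the summed member TPM in tumours and 24.5% and 24.0% in normal pancreas. Its log2 fold change of 0.73 (SE 0.18, edgeR adjusted p = 0.0107) missed the threshold without normal library 1 (edgeR adjusted p = 0.0700) or 2 (0.112). Gnl3, the GTPase nucleostemin of stem and tumour cells (chr14:31012433-31019152), had 29.0, 35.3 and 18.9 TPM in tumours, against 2.22 and 2.57 TPM in normal pancreas, with a log2 fold change of 1.99 (SE 0.21, edgeR adjusted p = 0.000354). Ncl, the RNA-binding nucleolar protein nucleolin, had 40.9, 35.3 and 32.2 TPM in tumours, against 14.03 and 12.02 TPM in normal pancreas, and did not pass at 0.24 (SE 0.15, edgeR adjusted p = 0.196). Its direction turned with the exon length correction, to -0.49 (edgeR adjusted p = 0.0329). The ratio of Gnl3 to Ncl was 0.709, 0.999 and 0.588 in tumours and 0.158 and 0.214 in normal pancreas on TPM, and 0.230, 0.324 and 0.200 in tumours and 0.0666 and 0.0818 in normal pancreas on counts. Ddx21, a nucleolar RNA helicase, was higher by 0.76 (edgeR adjusted p = 0.00583) and missed the threshold without normal library 2 (edgeR adjusted p = 0.0604). Under TMM, 3 of these 4 genes were higher and Ncl did not pass, a count too small to set against the 39.2% of all genes.

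Small-subunit assembly had 9 of 13 genes higher (69.2%, against 39.2% of all genes) and 1 lower (7.69%, against 27.8%), and at 1.10 its median was the highest of the 5 roles under TMM. Utp20, a large protein of the small-subunit processome, had 3.06, 2.86 and 2.21 TPM in tumours, against 0.56 and 0.30 TPM in normal pancreas, with a log2 fold change of 1.56 (SE 0.15, edgeR adjusted p = 0.000249). Tsr1, which acts on the late small-subunit precursor, had 11.0, 12.04 and 10.2 TPM in tumours, against 1.71 and 1.68 TPM in normal pancreas, with 1.21 (SE 0.15, edgeR adjusted p = 0.000614). Both were separated between the groups by more than the spread within either. Wdr43 and Wdr75 belong to the UTP-A complex that first binds the nascent precursor. Wdr43 had 17.6, 17.7 and 10.4 TPM in tumours, against 1.90 and 2.36 TPM in normal pancreas, with a log2 fold change of 1.14 (SE 0.18, edgeR adjusted p = 0.00187). Wdr75 had 11.4, 11.5 and 6.62 TPM in tumours, against 1.22 and 1.85 TPM in normal pancreas, with 0.96 (SE 0.19, edgeR adjusted p = 0.00471). On TPM, tumour 3 was the lowest tumour for each of these genes, as it was for 60.2% of all genes tested. On TMM-scaled CPM, tumour 1 was the lowest for Utp20 and Tsr1.

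Heatr1, also of the UTP-A complex, was higher by 1.36 (edgeR adjusted p = 0.00482), and the call ended without normal library 1 (edgeR adjusted p = 0.0510). Wdr3, of the UTP-B complex, was higher by 1.43, and Rrp12, known from yeast as an export and maturation factor, by 1.10. Dimt1, which methylates adenosines of the small-subunit RNA, was higher by 1.36 (edgeR adjusted p = 0.0105), but not without normal library 1 (0.0673) or 2 (0.0600). Ddx10, an RNA helicase, was higher by 0.74 (edgeR adjusted p = 0.0191), but not without normal library 1 (0.0785) or 2 (0.115). Bms1, a GTPase of the processome, gave 0.35, the endonuclease Nob1 that makes the mature end of the small-subunit RNA gave -0.45, and Noc4l, whose yeast counterpart acts in small-subunit export, gave -0.47. These 3 did not pass. Pno1, the partner of Nob1 on the precursor, was the exception. It had 4.27, 5.57 and 4.20 TPM in tumours, against 3.73 and 3.44 TPM in normal pancreas, and 6.01, 8.33 and 7.20 TMM-scaled CPM in tumours, against 16.6 and 15.5 in normal pancreas. Its log2 fold change was -1.16 (SE 0.18, edgeR adjusted p = 0.00184) under TMM and -0.61 (edgeR adjusted p = 0.0337) with the remaining counts, whereas it was 2.03 with total counts.

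Large-subunit assembly held the members at both ends of the range, with 6 of 13 higher (46.2%), 3 lower (23.1%) and a median of 0.40. The shares are near the 39.2% and 27.8% of all genes, and the median is near the 0.38 of all genes. Rrp1b, a nucleolar protein that binds chromatin and precursor particles (chr17:32036100-32062865), had 9.31, 8.82 and 6.05 TPM in tumours, against 0.79 and 0.70 TPM in normal pancreas. Its log2 fold change of 2.12 (SE 0.19, edgeR adjusted p = 0.000177) was the highest of the 42. Ppan, an assembly factor of the early large subunit, had 14.3, 12.9 and 7.04 TPM in tumours, against 1.80 and 1.60 TPM in normal pancreas, with 1.45 (SE 0.22, edgeR adjusted p = 0.00174). Noc2l, whose yeast counterpart acts in transport of the large-subunit precursor, had 12.8, 13.6 and 9.07 TPM in tumours, against 4.02 and 4.10 TPM in normal pancreas, and did not pass at -0.04 (SE 0.14, edgeR adjusted p = 0.821). Wdr74, which works with an ATPase that releases factors from the precursor (chr19:8735827-8740624), had 7.39, 8.57 and 5.31 TPM in tumours, against 8.39 and 6.94 TPM in normal pancreas, so the groups overlapped. On TMM-scaled CPM it had 6.96, 8.61 and 5.61 in tumours, against 26.6 and 22.6 in normal pancreas, and its log2 fold change of -1.79 (SE 0.21, edgeR adjusted p = 0.000487) was the lowest of the 42. With the remaining counts Wdr74 stayed lower, at -1.24 (edgeR adjusted p = 0.00384), while total counts gave 1.40.

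Pes1, Bop1 and Wdr12 form the PeBoW complex, which is needed for maturation of the large-subunit RNA, and they went different ways. Bop1 had 6.28, 8.19 and 5.31 TPM in tumours, against 4.37 and 3.56 TPM in normal pancreas, with a log2 fold change of -0.90 (SE 0.18, edgeR adjusted p = 0.00471). Pes1 had 6.85, 8.70 and 5.10 TPM in tumours, against 3.02 and 2.83 TPM in normal pancreas, with -0.51 (SE 0.13, edgeR adjusted p = 0.0150). Wdr12 was higher by 1.55 (SE 0.20, edgeR adjusted p = 0.000775), at 4.29, 5.94 and 4.34 TPM in tumours, against 1.10 and 1.15 TPM in normal pancreas. The lower calls depended on the scaling: with the remaining counts Bop1 gave -0.35 (edgeR adjusted p = 0.156) and Pes1 gave 0.04 (0.821), and the call of Pes1 also ended without normal library 1 (edgeR adjusted p = 0.109) or 2 (0.0771). The ratio of Wdr12 to Bop1 on TPM was 0.683, 0.725 and 0.817 in tumours and 0.252 and 0.323 in normal pancreas, and that of Wdr12 to Pes1 was 0.626, 0.683 and 0.851 in tumours and 0.364 and 0.406 in normal pancreas. On counts these ratios lay further apart, with Wdr12 over Bop1 at 1.52, 1.54 and 1.41 in tumours and 0.245 and 0.306 in normal pancreas, and Wdr12 over Pes1 at 1.09, 1.36 and 1.20 in tumours and 0.275 and 0.315 in normal pancreas. Both ratios were higher in every tumour on either scale, which follows from choosing the pairs after their values were seen. Nip7, a factor of large-subunit RNA processing, was higher by 1.11 (edgeR adjusted p = 0.00325). Grwd1, a histone-binding nucleolar protein, was higher by 1.07 (edgeR adjusted p = 0.00991), but not without normal library 1 (0.0679) or 2 (0.0609), and Nop2, which methylates a cytosine of the large-subunit RNA, by 0.75 (edgeR adjusted p = 0.00619), but not without normal library 1 (0.0512) or 2 (0.0529). Noc3l, a partner of the Noc2l counterpart in yeast, at 0.40, the nucleolar protein Nop16 at -0.07 and the helicase Ddx18 at -0.28 did not pass.

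**Figure D3:**
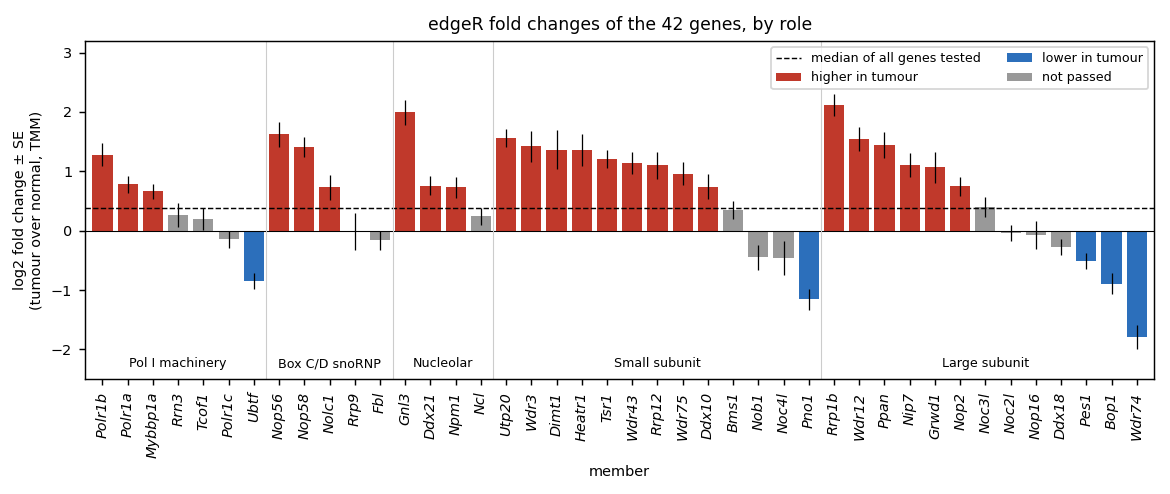
Log2 fold change of each member, tumour over normal pancreas, under TMM (bars, with error bars of 1 SE), ordered by role and coloured by call, with the median of all genes tested as a dashed line. The values run between -1.79 for Wdr74 and 2.12 for Rrp1b, and each role except the box C/D and nucleolar genes holds a member called lower.

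Ranks within a library gave a view that needs no scaling. Among 21900 protein-coding genes the median percentile of the members was 84.9, 88.3 and 83.5 in tumours, against 78.5 and 79.2 in normal pancreas. A higher percentile in every tumour than in both normal libraries was found for 29 of 42 members, against 37.8% of the 14085 protein-coding genes tested. Pno1 and Wdr74 ranked lower in every tumour, and 11 members overlapped. Gnl3 stood at percentiles 97.5, 98.0 and 96.4 in tumours, against 81.2 and 83.2 in normal pancreas, and Rrp1b at 89.2, 89.0 and 85.9 in tumours, against 66.6 and 65.1 in normal pancreas. Npm1 was near the top in both groups, at 99.4 or above in tumours and 98.2 in both normal libraries.

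**Figure D4:**
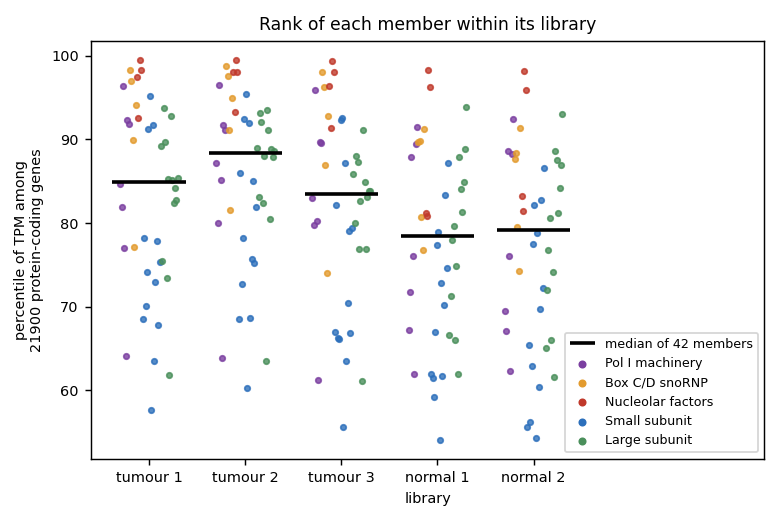
Percentile of TPM among protein-coding genes (vertical axis) of each member in each library (horizontal axis), coloured by role, with the median of the 42 members as a black bar. The medians are 84.9, 88.3 and 83.5 in tumours and 78.5 and 79.2 in normal pancreas.

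The makeup of the summed member TPM by role differed between the groups. Nucleolar factors held 42.3%, 42.1% and 43.3% of it in tumours and 37.6% and 36.8% in normal pancreas. Box C/D genes held 16.6%, 17.7% and 16.4% in tumours and 13.7% and 12.6% in normal pancreas. Large-subunit genes held 16.9%, 17.0% and 16.1% in tumours and 23.6% and 24.0% in normal pancreas, and polymerase I genes 11.3%, 10.1% and 11.4% in tumours and 13.2% and 13.9% in normal pancreas. Small-subunit genes, at 13.0%, 13.0% and 12.8% in tumours and 11.9% and 12.7% in normal pancreas, were nearest to level. In none of these roles did the groups overlap, and no test was run on these shares. The large-subunit difference lay largely in Wdr74 and Bop1. Wdr74 held 1.28%, 1.32% and 1.25% in tumours and 5.95% and 5.28% in normal pancreas. Bop1 held 1.08%, 1.26% and 1.25% in tumours and 3.10% and 2.71% in normal pancreas. Rrp1b of this role held more in tumours, 1.61%, 1.36% and 1.42%, against 0.56% and 0.53%. Among polymerase I genes, Ubtf and Polr1c held less in every tumour than in normal pancreas, and Polr1b and Mybbp1a held more.

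The tumours differed among themselves. Tumour 3, the library of lowest depth, was the lowest of the 3 tumours for 41 of 42 members on TPM, where it was lowest for 60.2% of all genes tested. On TMM-scaled CPM it was lowest for 29 members (69.0%), against 32.4% of all genes, and its median ratio to the mean of tumours 1 and 2 was 0.878 in members and 0.986 over all genes. The median coefficient of variation over the tumours on this scale was 15.5% in members and 19.5% over all genes. On the rescaled TPM the summed member level of tumour 3 was 3291, against 3374 in tumour 1 and 4566 in tumour 2. Depth moved with this difference, and so did the acinar sum, at 1886 TPM in tumour 3 against 115 and 37.1 TPM in tumours 1 and 2. Tumour 3 also carries a different number in its title. The part of each was not tested.

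Of 122 other pathway genes, chosen by known function, 121 were tested. Under TMM 27 (22.3%) were higher and 36 (29.8%) lower, against 39.2% and 27.8% of all genes, with a median of -0.00 beside 0.38. With the remaining counts 52 (43.0%) were higher and 14 (11.6%) lower, against 50.6% and 17.5% of all genes. The other pathway genes were thus called higher less often than all genes under both scalings, but more often under others. Scaled on ribosomal protein genes 96 (79.3%) were higher, against 69.1% of all genes, with a median of 1.32 beside 1.71. In limma on log2(TPM + 1) 94 (77.7%) were higher, against 63.4% of all genes, with a median of 0.94 beside 0.62. Without normal library 1 the TMM counts were 16 higher and 20 lower, and without normal library 2 they were 14 higher and 21 lower. Their summed level was 805, 940 and 629 TPM in tumours, against 387 and 357 TPM in normal pancreas, a ratio of 2.13 (exact permutation p = 0.1). The 16 other polymerase I genes had 5 higher (31.2%) and 5 lower (31.2%) under TMM. Taf1d, of the promoter selectivity factor, had 30.9, 38.5 and 19.5 TPM in tumours, against 1.99 and 1.35 TPM in normal pancreas, a log2 fold change of 3.63 (SE 0.28, edgeR adjusted p = 0.000107), and Taf1c of the same factor gave 1.89. Polr1d, a subunit shared with RNA polymerase III, gave -1.62, and Polr2e, shared by all 3 nuclear polymerases, -1.42. The 13 genes of box C/D and H/ACA particle assembly had 1 higher (7.69%), the assembly factor Shq1 at 2.05, and 4 lower (30.8%). Among the lower were Pih1d1 at -1.73 and the H/ACA core protein Nhp2 at -1.02.

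Of 37 other small-subunit genes, 8 were higher (21.6%) and 16 lower (43.2%), against 39.2% and 27.8% of all genes. The processome proteins Pdcd11 at 1.74 and Nol6 at 1.13 were among the higher. The kinase Riok3 at -1.72 and the helicase Ddx49 at -1.14 were among the lower. Of 42 other large-subunit genes, 9 were higher (21.4%) and 7 lower (16.7%). Mdn1, the giant ATPase midasin, had 6.80, 6.38 and 4.05 TPM in tumours, against 0.07 and 0.15 TPM in normal pancreas, a log2 fold change of 4.03 (SE 0.23, edgeR adjusted p = 4.08e-05). Gnl3l, a relative of Gnl3, gave 2.65, whereas Nop53, which recruits the exosome in yeast, gave -1.24 and the helicase Ddx54 -1.55. Of 14 exosome genes 13 were tested, with 4 higher (30.8%) and 4 lower (30.8%). The catalytic subunit Dis3 gave 1.44 and the exosome-associated Mphosph6 1.78, and the core subunits Exosc5 and Exosc4 gave -1.09 and -0.57.

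Ribosomal protein genes encode the proteins that the members help to assemble. Of 83 such genes 80 were tested, and under TMM 78 (97.5%) were lower, against 27.8% of all genes, and 2 did not pass. Their median was -1.34, beside 0.38 over all genes. With total counts 79 of the 80 (98.8%) were higher, but so were 93.3% of all genes. The median of the ribosomal protein genes was then 1.85, below the 3.55 over all genes. Their summed level was 25442, 29143 and 20570 TPM in tumours, against 27136 and 22161 TPM in normal pancreas, a ratio of 1.02 (exact permutation p = 0.9). The 2 sets differ in length: median exon length was 4052 bases in members, 1806 bases in ribosomal protein genes and 4505 bases in protein-coding genes. With the trend on exon length removed, 76 of the 80 ribosomal protein genes (95.0%) were lower, against 30.4% of all genes. Their median was then -1.15, beside 0.18 over all genes.

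Length moved with the fold change across genes. Spearman's rho of log2 fold change with exon length was 0.57 across the 42 members, 0.37 across the 121 other pathway genes and 0.25 across 14070 protein-coding genes, as a description, since all genes share the same 5 libraries. With a smooth trend of each library with exon length removed, 23 members were higher and 6 lower, against 34.7% and 30.4% of all genes, and the median was 0.60 beside 0.18 over all genes. Polr1a left the higher calls and Ncl joined the lower ones. Among members that kept their higher call, the log2 fold change moved most for Wdr12, to 0.62 where it was 1.55 under TMM, for Nop58, to 0.62 where it was 1.42, and for Utp20, to 0.83 where it was 1.56. Of the other pathway genes named, Mdn1 gave 2.26 where it was 4.03, Pdcd11 1.07 where it was 1.74 and Nhp2 -0.60 where it was -1.02, and the lower call of Exosc4 ended, at -0.35 (edgeR adjusted p = 0.0915).

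**Figure D5:**
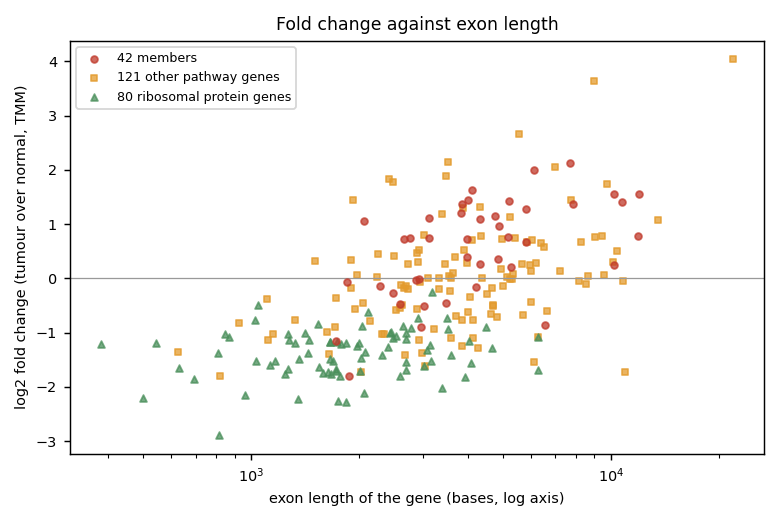
Log2 fold change under TMM (vertical axis) against exon length in bases on a logarithmic axis (horizontal axis) for the members, the other pathway genes and the ribosomal protein genes, with 1 point per gene. Longer members tend to lie higher, with a Spearman's rho of 0.57 over 42 genes.

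Counting limits touch some members. On the GENCODE annotation 3 members share over 20% of their exon bases with a gene on the opposite strand: Tsr1 32.3% with Srr, Dimt1 31.9% with Kif2a and Noc2l 20.9% with Samd11; Wdr3 shares 15.7% with Spag17. Whether the counting used strand is not given in the sources used here, so the values of these genes are uncertain. Annotated exons of Nop56, Nop58, Ncl, Gnl3 and Ppan also hold small nucleolar RNA genes on the same strand. Counts were not whole in at least 1 library for 7 members, Npm1, Nop56, Nop58, Fbl, Ddx18, Ppan and Tsr1, which means that reads were split between them and other genes.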

How the data were processed

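RNA sequencing of 3 tumours and 2 normal pancreas samples was analysed from the deposited gene tables. Per the submitters' processing notes, the tools were RSEM 1.31, STAR 2.7 and Trim Galore 0.60, and the builds mm10 and GRCm38. The authors deposited estimated counts per gene (expected counts, in which RSEM divides reads that fit several genes) and TPM per gene; a deposited FPKM table was not used. Rounded counts went into edgeR 4.0.16 under R 4.3.3 (TMM, filterByExpr, glmQLFit and glmQLFTest, 16810 genes, Benjamini-Hochberg adjustment, threshold 0.05). The SE was worked back as the absolute log2 fold change, tumour over normal, divided by the square root of the quasi-likelihood F statistic. Alternatives used limma 3.58.1 on log2(TPM + 1) and log2(TPM + 0.1), DESeq2 1.42.0, other scalings, and offsets for exon length and gene span, these offsets chosen after seeing the data. The edgeR step was checked on simulated data with 200 changed genes. Summed levels were compared with exact permutation tests.

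The 92 spike-in rows, all at 0, were left out. Replicates differed by more than sampling noise, with chi-square per degree of freedom of 37.6 to 59.0 between tumours and 27.3 between normal libraries. Exons came from GENCODE M21, which matched 55480 of 55573 gene IDs without version, and promoters from RefSeq; 3 polymerase I genes were matched by the older symbols Twistnb, Cd3eap and Znrd1. Protein sequences were not analysed here.

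Members and lists were chosen with earlier results of these data known. Per-library values are given for the polymerase I genes, the 3 members of each other role with the highest mean TPM, the 4 highest and the 4 lowest fold changes, and members called against most of their role; Mybbp1a and Wdr12 were added after their values were seen. Of each other list the 2 genes with the smallest p in each direction are named.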

Additional observations from a re-analysis of the deposited data

How the results depend on the processing

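Against 24 higher and 5 lower calls and a median log2 fold change of 0.74 for the members, total counts gave 42, 0 and 3.92. Scaling on ribosomal protein genes gave 38, 0 and 2.06, and scaling on the members gave 9, 13 and 0.033; the medians over all genes were 0.38 under TMM, 3.55 with total counts, 1.71 on ribosomal protein genes and -0.31 on the members, so most of each shift was shared by all genes. Scaling on the remaining counts left 2 lower calls and a median of 1.29. limma on log2(TPM + 1) gave 40 higher and 0 lower calls with a median of 1.39, and limma on log2(TPM + 0.1) gave 40, 0 and 2.07. The medians over all genes were 0.62 and 1.40 there. In either fit 94 of the 121 other pathway genes (77.7%) were higher, against 63.4% and 68.8% of all genes. Leaving out 1 library gave 16 to 24 higher calls, 4 to 7 lower calls, medians of 0.63 to 0.85 and log2 ratios of the summed TPM of 1.88 to 2.17, beside 2.02 with all libraries; as a share of all counts that log2 ratio was 3.71. A fit with the replicate number as a block gave 24 higher and 4 lower calls and a median of 0.81; the numbers were given in accession order and pair nothing, and the replicate differences of the groups correlated at -0.118 across genes. Single members changed sign as follows, and the cause was not tested. Total counts gave Polr1c 3.04, Ubtf 2.33, Fbl 3.03, Rrp9 3.18, Noc4l 2.72, Pno1 2.03, Nob1 2.74, Bop1 2.29, Pes1 2.68, Nop16 3.12, Wdr74 1.40, Noc2l 3.15 and Ddx18 2.91. The remaining counts gave Polr1c 0.40, Fbl 0.39, Rrp9 0.55, Noc4l 0.090, Nob1 0.10, Pes1 0.042, Nop16 0.48, Noc2l 0.51 and Ddx18 0.27. Ribosomal protein scaling gave Polr1c 1.19, Ubtf 0.47, Fbl 1.16, Rrp9 1.32, Noc4l 0.85, Pno1 0.16, Nob1 0.86, Bop1 0.43, Pes1 0.83, Nop16 1.22, Noc2l 1.30 and Ddx18 1.06. limma with a pseudocount of 1 gave Polr1c 1.09, Ubtf 0.63, Fbl 1.16, Rrp9 1.10, Noc4l 0.81, Pno1 0.30, Nob1 0.79, Bop1 0.60, Pes1 0.98, Nop16 1.02, Noc2l 1.32 and Ddx18 0.87, and with 0.1 it gave Polr1c 1.24, Ubtf 0.70, Fbl 1.28, Rrp9 1.48, Noc4l 1.16, Pno1 0.36, Nob1 0.97, Bop1 0.70, Pes1 1.17, Nop16 1.21, Noc2l 1.497 and Ddx18 1.10. Scaling on the members gave Rrn3 -0.44, Tcof1 -0.51, Mybbp1a -0.031, Ncl -0.44, Bms1 -0.36 and Noc3l -0.30. Removing the exon length trend gave Polr1a -0.15, Rrp9 0.039, Ncl -0.49, Nop16 0.17 and Noc2l 0.021, and removing the gene span trend gave Fbl 0.0012, Rrp9 0.15, Nop16 0.016 and Noc2l 0.091. Upper-quartile factors gave Rrp9 0.12, Nop16 0.058 and Noc2l 0.094, DESeq2 gave Rrp9 0.032 and Noc2l 0.013, no filter gave Rrp9 0.043 and Noc2l 0.016, protein-coding genes alone gave Rrp9 0.023, and the replicate block gave Rrp9 0.17 and Noc2l 0.013. Leaving out 1 library at a time gave -0.25 to 0.28 for Rrp9, -0.30 to 0.093 for Nop16 and -0.093 to 0.044 for Noc2l. With 2 normal libraries the spread there is poorly known, and counts were lowest for Dimt1, at 28 and 30 in them, and next for Rrp12, at 48 and 49.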
